A study of Mus musculus with 10 samples.

Results

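The nuclear genes for subunits of the mitochondrial respiratory chain and ATP synthase were followed in C2C12 cells, an established mouse myoblast line, transfected with a synthetic miR-142-3p, a microRNA mimic, or with a control RNA of scrambled sequence. The genes were taken from the array by name: the Nduf genes of complex I, the Sdh genes of complex II, the Uqcr genes and Cyc1 of complex III, Cycs for cytochrome c, the numbered Cox genes of complex IV and the Atp5 genes of ATP synthase, which is also called complex V. The name rule uses no measured value, though the set was proposed with results of these data known. It gave 87 genes on 128 probes, out of 34650 gene names and 55681 probes on the array. Of these, 83 genes with 120 probes were kept, because the scanner software marked at least 1 of their probes as well above background in 4 or more of the 10 scans. Cox7b2, Cox8c, Ndufa4l2 and Atp5s were well above background on 0 scans and have no value.

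Both groups were C2C12 myoblasts in growth medium, and both RNAs were delivered with a lipid reagent at 150 nM, with RNA taken 72 hours later. About 60% of the cells were estimated to take up RNA, so each sample is a mixture of cells with and without it. No sample of untransfected cells was analysed here. The samples are named as 6 mimic and 4 scramble replicates, but the file headers place them on 5 positions of 1 slide, each scanned on 2 days. Scans of 1 position were averaged, which leaves 3 mimic arrays and 2 scramble arrays as the samples compared. All 4 scramble titles carry a remark about re-analysis that the sources used here do not explain. The series describes 6 and 4 transfections repeated independently, which 5 positions cannot hold as separate samples, and nothing says which culture each position came from. The spread that p-values rest on, that between the 5 arrays, may therefore be technical. The share of spots well above background was 25.4% to 34.6% per scan. All levels below are log2 signals relative to the array's 75th percentile, called normalised log2 signals, and differences are mimic minus scramble on the log2 scale. The levels of different probes are not comparable with each other.

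The respiratory chain passes electrons from NADH through complex I, or from succinate through complex II, to ubiquinone, then through complex III and cytochrome c to complex IV, where oxygen is reduced. Complexes I, III and IV pump protons across the inner mitochondrial membrane, and ATP synthase uses the gradient to make ATP. Most subunits are encoded in the nucleus and a few in mitochondrial DNA. Several subunits of complex IV exist as isoforms from separate genes. In striated muscle, Cox6a2, Cox7a1 and Cox8b are the heart and muscle forms and Cox6a1, Cox7a2 and Cox8a the widely expressed ones.

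The agent is shown first, because the seed decides which messages a microRNA pairs with. The RefSeq tables of assembly GRCm38.p6 hold the mature microRNA of this name as mmu-miR-142a-3p, at chr11:87756903-87756925 on the plus strand. The capitals mark the seed, bases 2 to 8 from the 5′ end. The supplier's own sequence of the mimic was not used here.
mmu-miR-142a-3p: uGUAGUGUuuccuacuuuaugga

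The 250 bases before the start site are shown for complex IV isoform genes whose values are set against each other below: Cox8b, which fell, Cox8a, its widely expressed partner, Cox6a1, the partner of Cox6a2, and Cox7a1, a muscle form that did not pass the test. Sequences are from the RefSeq table of GRCm38.p6, which holds an entry for 70 of the 87 genes, and run 5′ to 3′ on the gene's strand. It holds no entry for Cox6a2 or Cyc1, which also fell, so neither could be shown. The Cox8b stretch is at chr7:140900447-140900696 on the minus strand and the Cox8a stretch at chr19:7217617-7217866 on the minus strand. The Cox6a1 stretch is at chr5:115348959-115349208 on the minus strand and the Cox7a1 stretch at chr7:30183921-30184170 on the plus strand. Capitals mark matches, on either strand, to the NRF1 motif (the long capital runs in Cox6a1 are its 2 forms found here), CCGGAAG of the ETS family core, AAGATGGC of the YY1 motif, CANNTG of the E-box and TAAAAATA of the MEF2 core.
Cox8b: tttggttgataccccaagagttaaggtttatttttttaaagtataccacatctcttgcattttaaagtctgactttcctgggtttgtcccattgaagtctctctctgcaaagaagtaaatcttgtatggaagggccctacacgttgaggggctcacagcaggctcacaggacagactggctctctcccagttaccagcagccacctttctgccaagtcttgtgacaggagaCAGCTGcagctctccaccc
Cox8a: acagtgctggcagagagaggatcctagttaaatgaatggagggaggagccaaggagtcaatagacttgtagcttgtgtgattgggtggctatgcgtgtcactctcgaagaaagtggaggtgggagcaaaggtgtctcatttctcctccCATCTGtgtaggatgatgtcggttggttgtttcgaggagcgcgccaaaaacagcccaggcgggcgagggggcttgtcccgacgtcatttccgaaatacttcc
Cox6a1: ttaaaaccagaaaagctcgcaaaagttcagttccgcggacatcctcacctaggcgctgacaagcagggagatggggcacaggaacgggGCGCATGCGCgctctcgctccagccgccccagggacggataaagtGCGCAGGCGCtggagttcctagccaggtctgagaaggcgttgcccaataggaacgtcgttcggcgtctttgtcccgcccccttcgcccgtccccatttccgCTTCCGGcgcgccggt
Cox7a1: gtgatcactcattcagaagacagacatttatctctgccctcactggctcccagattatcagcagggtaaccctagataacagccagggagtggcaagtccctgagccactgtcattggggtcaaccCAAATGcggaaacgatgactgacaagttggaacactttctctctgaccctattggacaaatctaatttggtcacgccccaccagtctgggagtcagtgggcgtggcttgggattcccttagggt

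The Cox8b stretch held 1 E-box, CAGCTG at bases -19 to -14 from the start. The Cox8a stretch held 1 E-box at -102 to -97 and the Cox7a1 stretch 1 at -124 to -119. The Cox6a1 stretch held 2 matches to the NRF1 letters, at -162 to -153 and -117 to -108, and 1 to the ETS core at -16 to -10. Over all 70 genes with an entry, the NRF1 letters were found in 12 (17.1%), against 3.86% of 27025 promoters of the same length, and the ETS core in 11 (15.7%), against 7.05%. The E-box letters were found in 44 (62.9%), against 66.0%, and the form CAGCTG, which overlaps them, in 6 (8.57%), against 12.8%. The YY1 and MEF2 letters were found in 0 of the 70, against 1.59% and 2.48%. The median GC content was 56.2% in these 70 and 52.0% over all promoters, so the letters are set against promoters of another base composition. These matches describe the letters only.

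With the mimic, 3 of the 83 genes passed the threshold of an adjusted p of 0.05 (limma, Benjamini-Hochberg adjustment over all 13679 genes tested), and all 3 were lower: Cox8b, Cox6a2 and Cyc1. Over all genes 9.72% passed in either direction, 5.85% higher and 3.87% lower. None of the 83 was called higher; at an unadjusted p under 0.05 there were 7, with 1 higher and 6 lower, against 25.3% of all genes, 15.5% higher and 9.77% lower. The share of these genes called lower was thus close to the background of all genes, and the called genes are 2 muscle isoforms of complex IV and 1 catalytic subunit of complex III. Of the 83, 46 had a fitted difference above 0, where 58.5% of all genes did. The median difference was 0.04, against 0.09 over all genes. In 77 of the 83 the fitted difference was under 1.5-fold, against 75.4% of all genes, and in 74 the 95% limits lay within 2-fold in both directions, against 62.1%. These genes were bright: 81 of the 83 were well above background on all 10 scans, where 75.47% of all genes tested were. Among the genes at that brightness 6.99% were called.

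**Figure D1:**
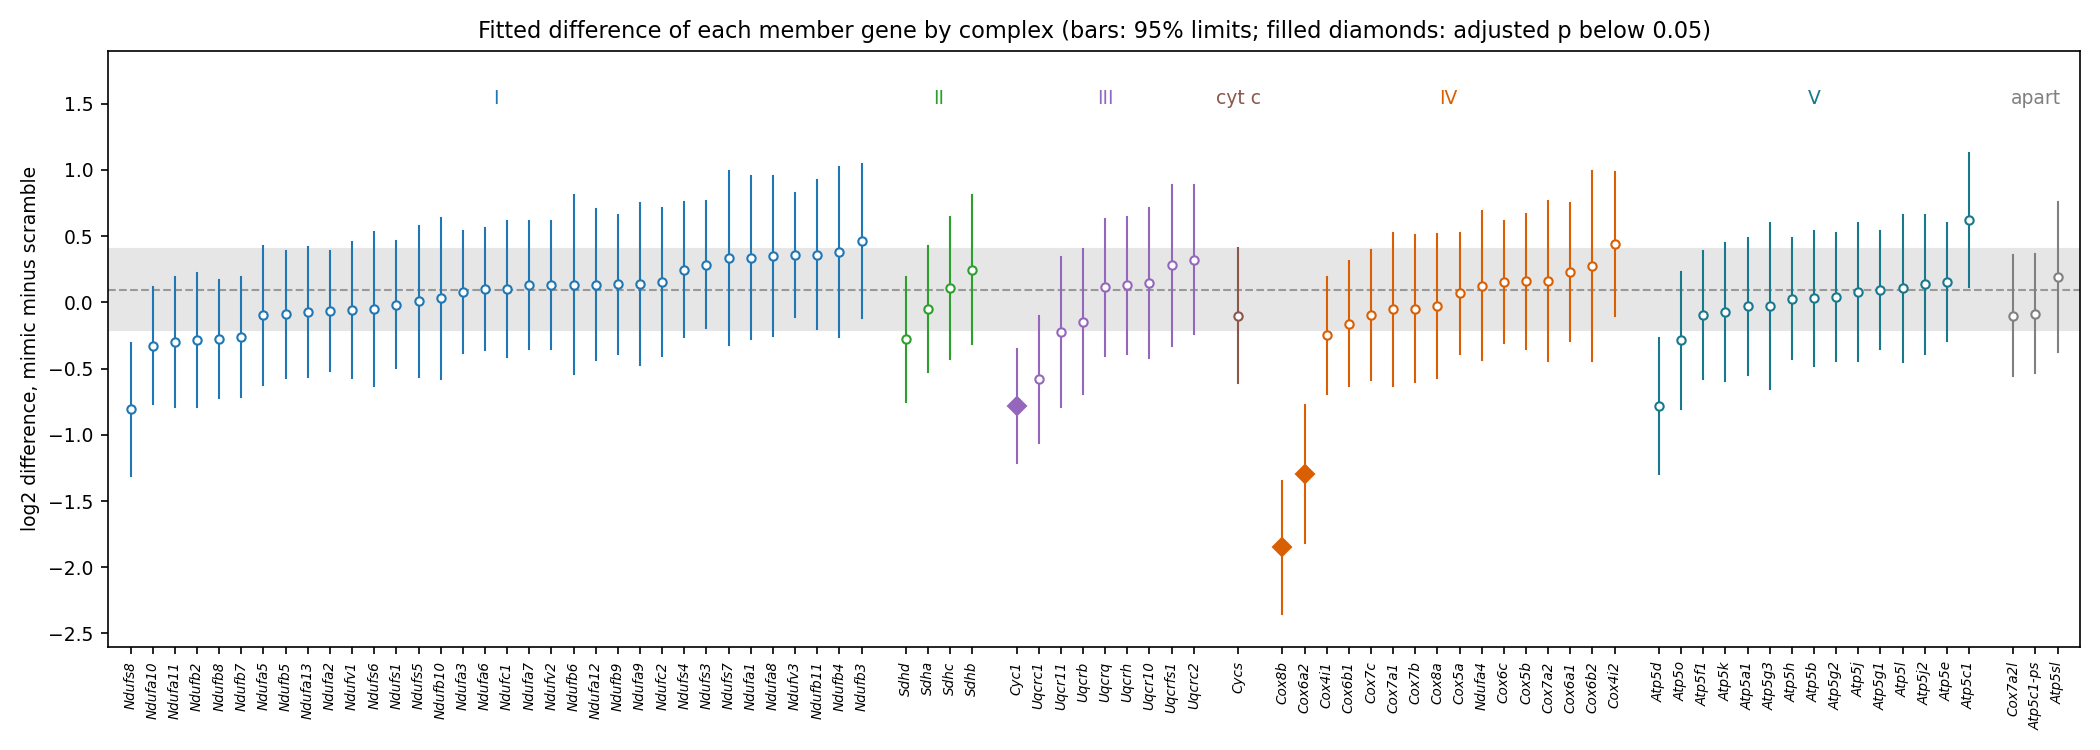
Fitted log2 difference, mimic minus scramble, of the kept genes, 1 of which is not shown, ordered within its complex, with 95% limits; filled diamonds passed an adjusted p of 0.05, the dashed line is the median of all genes tested and the grey band their middle 50%. Cox8b, Cox6a2 and Cyc1 are the filled points, at -1.85, -1.29 and -0.78, and most other points lie near the dashed line at 0.09.

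Complex I, which oxidises NADH, had 35 genes on the array and all were kept. None passed the threshold, 21 differences were above 0, and the median was 0.10. At an unadjusted p under 0.05 there was 1, Ndufs8. Ndufs8 encodes an iron-sulfur protein of the arm that reaches into the matrix, and its difference was the lowest of the complex. Its signals were 1.57, 1.70 and 1.97 on the mimic arrays and 2.41 and 2.70 on the scramble arrays. The groups did not overlap, and the difference of -0.81 ± 0.22 (SE, n = 3 and 2) had an adjusted p of 0.055 in limma. Without scramble array 1 it was -0.96, from a fit that leaves 1 scramble array, so its spread rests on the mimic arrays alone. Ndufs8 passed under 7 alternatives that keep both scramble arrays and fell short under 11 of 19. The 7 include fits that take the 10 scans as separate samples, so that rescans of a position count as samples. There 30.4% of all genes passed, or 17.1% with the replicate number as a block, against 9.72% in the main fit. Its probe lies at chr19:3911177-3911236 (mm9).

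The other core subunits of the matrix arm described here carry flavin or iron-sulfur clusters, and they gave adjusted p-values above 0.4 in limma. Ndufv1, which binds NADH and flavin, had signals of 5.74, 5.69 and 5.90 with the mimic and 6.09 and 5.59 with the scramble. Ndufs1, with iron-sulfur clusters, had 4.95, 4.89 and 4.93 against 5.14 and 4.74. In both genes the mimic arrays lay between the scramble arrays. Ndufs7, the subunit of the last cluster before ubiquinone, had 6.99, 7.09 and 6.90 against 7.13 and 6.19. The gap between the scramble arrays of Ndufs7 was wider than the range of its mimic arrays, and the fitted difference was 0.33 ± 0.29 (SE). With scramble array 1 left out the Ndufs7 difference was 0.81, and without scramble array 2 it was -0.14. Each of these fits leaves 1 scramble array. Ndufs7 passed under no alternative that keeps both.

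The 28 accessory subunits of complex I surround the core and are needed to build or hold it. Their differences ran from -0.33 for Ndufa10 to 0.46 for Ndufb3, all 28 were within 1.5-fold, and 18 were above 0. Ndufb3 had signals of 4.12, 4.23 and 4.41 with the mimic and 4.14 and 3.44 with the scramble. Its scramble array 1 lay within the mimic range and its scramble array 2 below it. The adjusted p was 0.298 (limma). Without scramble array 1 the difference was 0.81, from a fit that leaves 1 scramble array. Groups did not overlap in 5 accessory genes, 4 lower and 1 higher, against 16.8% and 25.9% of all genes.

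Complex II, succinate dehydrogenase, is the only complex of the chain encoded wholly in the nucleus, and its 4 genes gave no call in limma and 0 at an unadjusted p under 0.05. The flavoprotein Sdha had signals of 4.49, 4.69 and 4.58 with the mimic and 4.82 and 4.45 with the scramble. The iron-sulfur protein Sdhb had 5.74, 5.92 and 6.12 against 5.98 and 5.38. The membrane anchor Sdhc had 4.91, 5.36 and 4.94 against 5.15 and 4.77. In these 3 genes the groups overlapped on the brightest probe, which the signals here come from. The second probes of Sdhb (-0.48 ± 0.21, SE) and Sdhc (-0.30 ± 0.19) were lower with the mimic, and their groups did not overlap. Neither passed over all probes, with adjusted p-values of 0.197 and 0.369 in limma. The other anchor, Sdhd, had 4.32, 4.66 and 4.47 against 4.85 and 4.67, so every mimic array was below both scramble arrays, by little on mimic array 2. The Sdhd difference of -0.28 ± 0.21 (SE) had an adjusted p of 0.440 in limma. On the brightest probe of each gene, the differences of the complex ran from -0.28 to 0.25.

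Complex III, the cytochrome bc1 complex, held 1 of the 3 calls. Cyc1, cytochrome c1, is the heme subunit that hands electrons to cytochrome c. Its signals were 4.76, 4.77 and 4.76 on the mimic arrays and 5.54 and 5.55 on the scramble arrays. The groups were far apart for their spread, with SDs of 0.0055 and 0.0114. The mimic group was 1.72-fold lower, a difference of -0.78 ± 0.19 (SE, 95% limits -1.21 to -0.35) with an adjusted p of 0.037 in limma. The SE is larger than these SDs because the fit shares the spread of all genes. The call was close to the threshold: the difference stayed between -0.92 and -0.70 under 19 alternatives, but 9 ended the call. Leaving out mimic array 1, 2 or 3 gave adjusted p-values of 0.137, 0.116 and 0.150 in limma, with differences of -0.78, -0.78 and -0.78. Leaving out scramble array 2, which leaves 1 scramble array, gave -0.77. Its single probe lies at chr15:76175938-76175997 on the plus strand (mm9).

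The Rieske iron-sulfur protein Uqcrfs1, the other nuclear-encoded redox subunit, had signals of 4.39, 4.89 and 4.77 with the mimic and 4.73 and 4.08 with the scramble. Its groups overlapped and its difference was 0.28 ± 0.26 (SE). The core protein Uqcrc1 had 2.97, 3.12 and 3.02 against 3.43 and 3.81. Its groups did not overlap, and the difference of -0.58 ± 0.21 (SE) had an adjusted p of 0.129 in limma. Without scramble array 1, which leaves 1 scramble array, the difference was -0.77. The core protein Uqcrc2, its partner, had 5.48, 5.64 and 5.61 against 5.60 and 4.91, the highest difference of the complex at 0.32. The median of the 9 genes was 0.11.

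Cycs, which encodes the somatic form of cytochrome c, the mobile carrier between complexes III and IV, had signals of 5.76, 6.04 and 5.97 with the mimic and 6.25 and 5.80 with the scramble. The groups overlapped, and the difference was -0.10 ± 0.22 (SE) with 95% limits of -0.61 to 0.41. Its second kept probe gave -0.24 ± 0.26 (SE), also with overlapping groups. The RNAs for the 2 proteins on either side of the complex III to cytochrome c step thus gave -0.78 for Cyc1 and -0.10 for Cycs. Their 95% limits overlap, and the difference between them was not tested.

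Complex IV, cytochrome c oxidase, had 19 genes on the array, of which 16 were kept. Both calls were isoforms known from striated muscle, while 0 of the 11 widely expressed subunits passed the threshold in limma, or an unadjusted p of 0.05. Cox8b, the heart and muscle form of subunit VIII, had signals of 1.37, 1.80 and 1.48 on the mimic arrays and 3.52 and 3.28 on the scramble arrays. The groups were far from overlapping. The mimic group was 3.61-fold lower, a difference of -1.85 ± 0.22 (SE, 95% limits -2.35 to -1.35) with an adjusted p of 0.0012 in limma. Cox8b kept its call under all 19 alternatives, with differences between -2.11 and -1.59. It was well above background on all 10 scans, with 1 probe, at chr7:148084852-148084911 on the minus strand (mm9).

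Cox6a2, the heart and muscle form of subunit VIa, had signals of 2.90, 3.43 and 3.02 with the mimic and 4.35 and 4.47 with the scramble. Mimic array 2 was the highest of its group and still below both scramble arrays. The mimic group was 2.45-fold lower, a difference of -1.29 ± 0.23 (SE, 95% limits -1.81 to -0.78) with an adjusted p of 0.0099 in limma. Without mimic array 1 the difference was -1.19 with an adjusted p of 0.053, and 2 other settings also ended the call. Its probe lies at chr7:135349160-135349219 on the minus strand (mm9).

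Cox7a1, the heart and muscle form of subunit VIIa, did not pass the test. Its signals were 1.72, 2.18 and 2.11 with the mimic and 2.33 and 1.78 with the scramble, and the groups overlapped. The difference was -0.05 ± 0.25 (SE), with 95% limits of -0.63 to 0.52. These limits do not reach the differences fitted for Cox8b and Cox6a2. The difference between Cox7a1 and those genes was not tested.

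The widely expressed partners gave values near 0. Cox8a had signals of 7.16, 7.68 and 7.14 with the mimic and 7.45 and 7.25 with the scramble, a difference of -0.03 ± 0.24 (SE). Cox6a1 had 7.86, 8.30 and 8.11 against 8.04 and 7.68, a difference of 0.23 ± 0.23 (SE). Cox7a2 had 5.20, 5.81 and 5.56 against 5.64 and 5.09, a difference of 0.16 ± 0.26 (SE). In all 3 partners the groups overlapped, and their adjusted p-values in limma were 0.963, 0.570 and 0.738.

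Each isoform was then set against its partner on the same array, which takes out any shift common to both. The signal of Cox8b minus that of Cox8a was -5.78, -5.87 and -5.65 on the mimic arrays and -3.93 and -3.96 on the scramble arrays, so the balance differed by -1.82 (SD within groups 0.09). Cox6a2 minus Cox6a1 was -4.96, -4.88 and -5.10 against -3.70 and -3.21, a difference of -1.52 (SD 0.22). Cox7a1 minus Cox7a2 was -3.49, -3.63 and -3.45 against -3.31 and -3.30, a smaller difference of -0.22 (SD 0.08). Cox4i2 minus Cox4i1 was -6.35, -6.10 and -5.79 against -6.63 and -6.92, a difference of 0.69 (SD 0.26). Only changes of these values between groups carry meaning, since they come from different probes. In each of the 4 pairs the groups did not overlap, and each gave an exact two-sided permutation p of 0.1, the smallest that 3 against 2 arrays allow, so no pair could pass 0.05. Adjustment over the 4 pairs leaves 0.1.

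**Figure D2:**
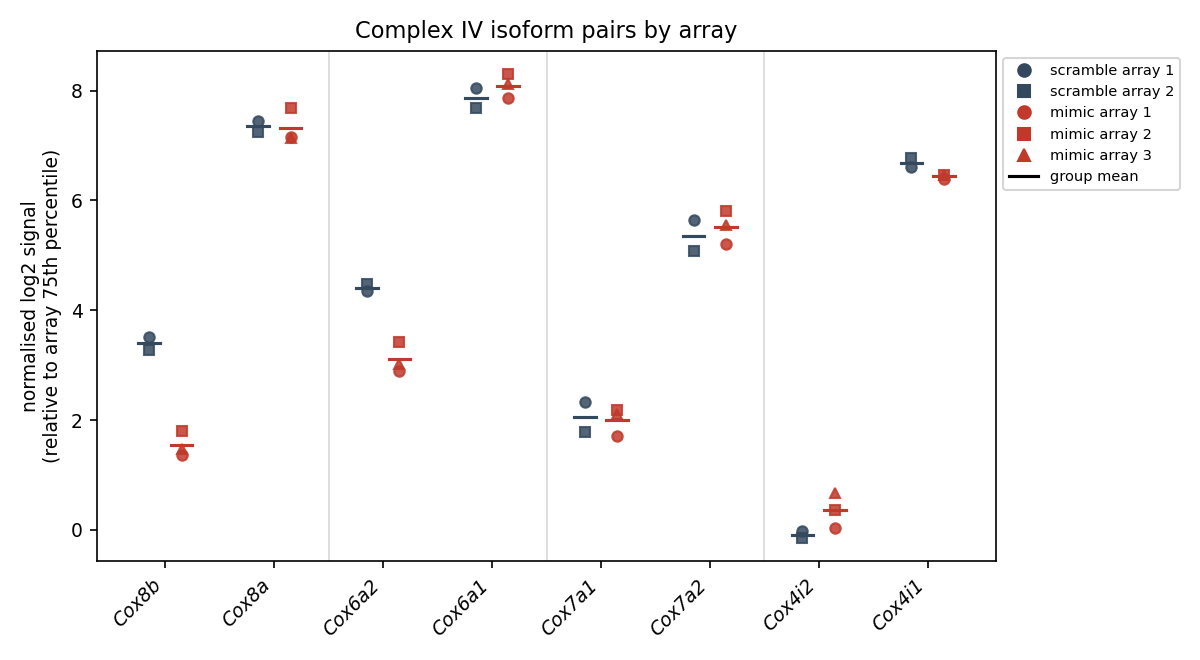
Normalised log2 signal of 4 complex IV isoform pairs on each array, with horizontal lines at the group means; heights of different genes come from different probes and are not comparable. The 3 mimic points of Cox8b lie between 1.37 and 1.80 and those of Cox6a2 between 2.90 and 3.43, below both scramble points, while the points of Cox7a1, Cox8a, Cox6a1 and Cox7a2 overlap between groups.

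Cox4i1, the widely expressed form of the regulatory subunit IV, had signals of 6.39, 6.47 and 6.46 with the mimic and 6.60 and 6.78 with the scramble. It was the only one of the 11 widely expressed subunits with groups that did not overlap, at -0.25 ± 0.19 (SE) and an adjusted p of 0.456 in limma. Its lung isoform Cox4i2 had 0.03, 0.37 and 0.67 against -0.02 and -0.15. Cox4i2 was dim, well above background on 5 of 6 mimic and 3 of 4 scramble scans, and its difference of 0.44 ± 0.24 (SE) had an adjusted p of 0.286. Cox6b2, the testis form of subunit VIb, was dimmer still, above background on 3 mimic scans and 1 scramble scan, with signals of -1.23, -0.36 and -1.10 against -0.87 and -1.47. The core-adjacent subunit Cox5a had 6.46, 6.62 and 6.48 against 6.57 and 6.34. Ndufa4, named as a complex I gene but found in complex IV, had 5.10, 5.35 and 5.29 against 5.45 and 4.80, and its paralog Ndufa4l2 was not measured above background.

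ATP synthase had 15 genes, all kept and none called in limma, 2 with an unadjusted p under 0.05, and a median difference of 0.03. The extremes were both subunits of the F1 head and its rotor: Atp5d at the low end and Atp5c1 at the high end. Atp5d encodes the delta subunit of the central stalk, and its signals were 4.44, 4.57 and 4.56 on the mimic arrays and 5.04 and 5.57 on the scramble arrays. The groups did not overlap, and the difference of -0.78 ± 0.22 (SE) had an adjusted p of 0.067 in limma. Without scramble array 1, in a fit that leaves 1 scramble array, it was -1.04. Atp5d passed under 5 alternatives that keep both scramble arrays and fell short under 13 of 19. The 5 include fits that take the 10 scans as separate samples, so that rescans of a position count as samples. There 30.4% of all genes passed, or 17.1% with the replicate number as a block. Atp5c1 encodes the gamma subunit, the shaft of the same stalk, and had 4.96, 5.31 and 5.42 against 4.71 and 4.51. Its difference was 0.62 ± 0.22 (SE) with an adjusted p of 0.123, and its second probe gave 0.33 ± 0.27 with overlapping groups. The low Atp5d and the high Atp5c1 values thus stand side by side in 1 structure, and neither passed the threshold.

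The catalytic subunit Atp5b, which makes ATP, had signals of 6.92, 7.25 and 7.35 with the mimic and 7.01 and 7.28 with the scramble. Its partner Atp5a1 had 5.08, 5.41 and 5.36 against 5.53 and 5.10. Both had overlapping groups, with differences of 0.03 ± 0.22 and -0.03 ± 0.23 (SE). The remaining F1 subunit, Atp5e of the central stalk, had 5.90, 6.07 and 5.85 against 5.79 and 5.79. The genes Atp5g1, Atp5g2 and Atp5g3 encode the same mature c subunit of the rotor ring from different loci, and their differences ran from -0.03 to 0.09. Those of the 7 other stalk and membrane subunits ran from -0.29 to 0.14, and in all 7 the groups overlapped on the brightest probe. The second-brightest probes of Atp5j2 (-0.27 ± 0.20, SE) and Atp5k (-0.27 ± 0.20) were lower with the mimic, and their groups did not overlap. Neither passed over all probes, with adjusted p-values of 0.438 and 0.450 in limma.

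The name rule also took genes that are not subunits of a complex by that name. Cox7a2l, a factor that joins complexes III and IV into supercomplexes, had signals of 6.41, 6.68 and 6.47 with the mimic and 6.65 and 6.58 with the scramble. Its difference was -0.10 ± 0.20 (SE). Atp5sl, known to act in building complex I, gave 0.19, and the pseudogene Atp5c1-ps gave -0.08. In these 3 the groups overlapped on the brightest probe. Cox7a2l had 3 kept probes. The dimmest gave -0.39 ± 0.22 (SE) with an adjusted p of 0.311 in limma, and its groups did not overlap. The remaining probe gave -0.10 with overlapping groups.

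The members shared a pattern across arrays that did not follow the groups. Scramble array 1 was above scramble array 2 in 68 of the 83 genes (81.9%), where this held for 59.3% of 13632 genes with a value on every array. Mimic array 1 was the lowest of its group in 70 of the 83 (84.3%), against 55.3% of those genes. The mean of the mimic arrays fell between the scramble arrays in 48 of the 83 (57.8%), against 31.7%. Measured from the scramble mean of each gene, the median of the 83 was -0.14, 0.16 and 0.06 on mimic arrays 1, 2 and 3 and 0.16 and -0.16 on scramble arrays 1 and 2. The spread between scramble arrays was thus as wide as that between mimic arrays. Without scramble array 1 the median difference of the 83 was 0.19, and without scramble array 2 it was -0.11, where all genes gave 0.15 and 0.03.

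**Figure D3:**
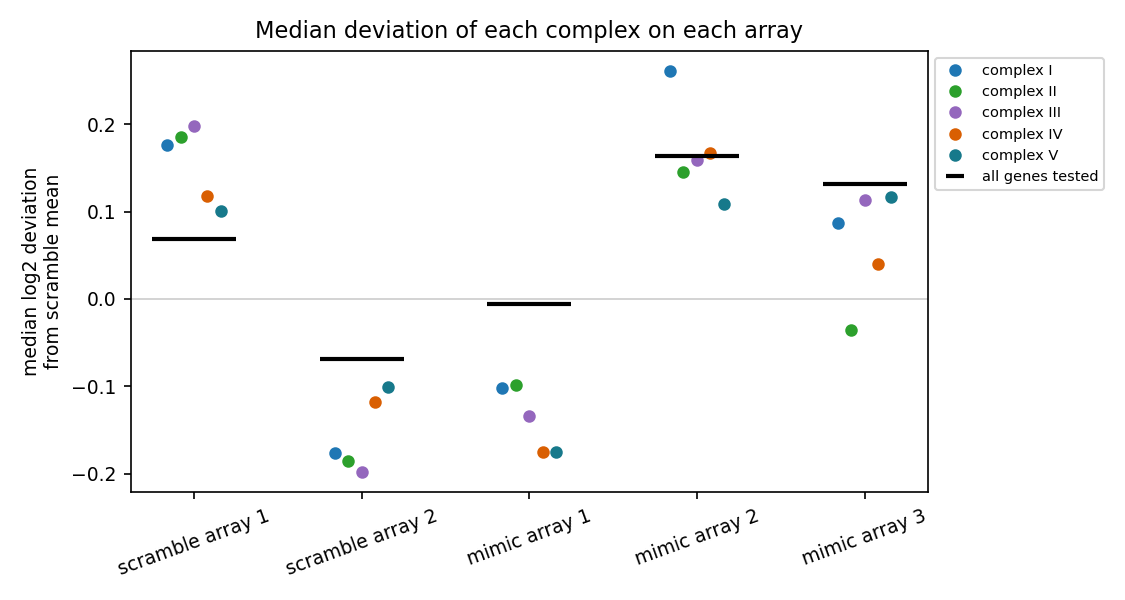
Median log2 deviation from each gene's scramble mean, for the genes of each complex (coloured points) and for all genes tested (black bars), on each array. All 5 complexes lie above 0 on scramble array 1 and below 0 on scramble array 2 and mimic array 1; the scramble arrays mirror each other around 0 by construction.

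The slide has 2 rows, and the arrays were spread over both. Mimic arrays 1 and 3 and scramble array 1 lay in row 1, and mimic array 2 and scramble array 2 in row 2. Within row 1 the median difference of the 83 genes was -0.19 and within row 2 it was 0.29, where all genes gave -0.01 and 0.23. The direction of the median therefore differed between the rows. The 3 called genes were lower in both rows: Cox8b gave -2.09 and -1.48, Cox6a2 -1.39 and -1.04, and Cyc1 -0.78 and -0.78. In row 1 Ndufs8 gave -0.64 and Atp5d -0.54, and in row 2 both were lower still, while Atp5c1 gave 0.49 and 0.80. A row holds at most 3 of these arrays, so the values within rows have no test. With the row as a block in limma, Cyc1 had an adjusted p of 0.083. By scan day, Cox8b gave -1.59 on the first and -2.11 on the second, Cox6a2 -1.14 and -1.45, and Cyc1 -0.76 and -0.80, with adjusted p-values for Cyc1 of 0.044 and 0.076 (limma).

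Groups that did not overlap were found in 17 of the 83 genes, 5 higher and 12 lower. Over all genes tested this held for 42.6%, with 25.9% higher and 16.8% lower. The 17 were 7 of the 35 genes of complex I, 1 of complex II, 2 of complex III, 4 of complex IV and 3 of ATP synthase.

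Where a gene had several probes they did not always give the same value. Of 27 genes with more than 1 kept probe, 12 had probes with differences of opposite sign, and the median spread between a gene's probes was 0.21. Over probes rather than genes, 4 of 120 passed an adjusted p of 0.05 in limma, against 9.5% of all 17455 probes kept. The 4 were the single probes of Cox8b, Cox6a2 and Cyc1 and the dimmer of 2 probes of Ndufb5, an accessory subunit in the membrane arm of complex I.

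The dimmer Ndufb5 probe had signals of 0.19, 0.51 and 0.66 with the mimic and 1.51 and 1.89 with the scramble. Its groups did not overlap, and its difference was -1.24 ± 0.23 (SE) with an adjusted p of 0.014 in limma. The brighter probe, which stands for the gene, had 4.34, 4.68 and 4.57 against 4.73 and 4.50, with overlapping groups and a difference of -0.09 ± 0.21 (SE). The probes lie close together, the brighter at chr3:32650097-32650156 and the dimmer at chr3:32650236-32650295 on the plus strand (mm9). Both were well above background on all 10 scans, and the spread of 1.15 between them was the largest of any of the 27 genes.

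Smaller disagreements touched genes of the complexes named above. The brighter Sdhb probe gave 0.25 and the dimmer -0.48. The groups of the dimmer probe did not overlap, but it did not pass, with an adjusted p of 0.197 in limma. The probes of Cox7c, a widely expressed subunit of complex IV, gave -0.10, 0.22 and 0.00, and the dimmest of them was near background.

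**Figure D4:**
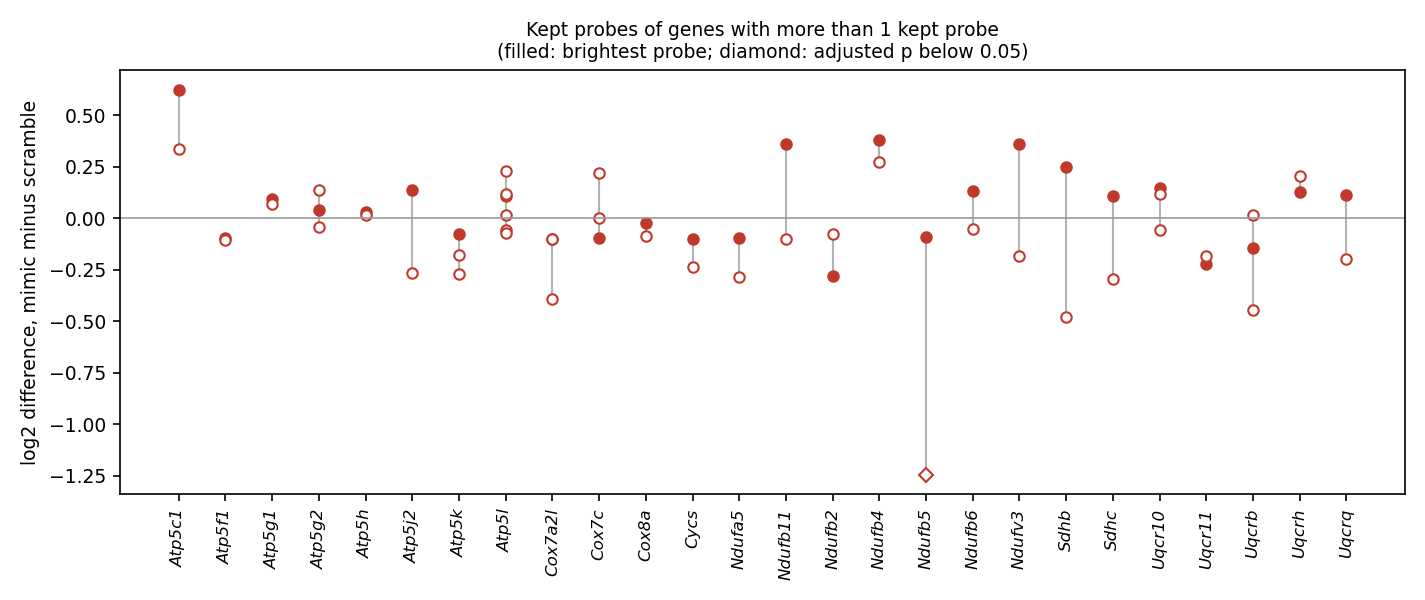
Log2 difference, mimic minus scramble, of the kept probes of genes with more than 1, leaving out 1 gene; filled points are the brightest probe of a gene, open points the others, and the diamond passed an adjusted p of 0.05. The dimmer Ndufb5 probe at -1.24 stands apart, and the other probes shown lie between -0.48 and 0.62.

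The genes that build and regulate the chain were read from lists chosen with results of these data known, and none of them passed the threshold in limma in either direction. At an unadjusted p under 0.05 there were 2 for complex I, 1 for complex II, 4 for complex IV and 3 among the biogenesis factors. There were 0 in the lists for complex III, ATP synthase and heme attachment. Over all genes tested 9.72% passed the threshold and 25.3% had an unadjusted p under 0.05. The complex I assembly list had all 14 genes kept, with a median of 0.10 and a range of -0.63 to 0.72. For complex II 2 of 2 genes on the array were kept, for complex III 4 of 5, and for complex IV 19 of 23, the last with a median of 0.02. For ATP synthase 4 of 5 were kept, with a median of 0.03, and the heme lyase Hccs, which attaches heme to cytochromes c and c1, gave 0.28. The list of transcription and replication factors for mitochondrial biogenesis had 12 of 16 kept, with a median of -0.21 and a range of -0.74 to 0.55. Its lowest values were Polrmt, the mitochondrial RNA polymerase, with -0.74 ± 0.20 (SE) and an adjusted p of 0.057, and Tfam, the mitochondrial transcription factor, with -0.59 ± 0.19 and 0.103 (limma). Its highest were Tfb1m, a mitochondrial ribosomal RNA methyltransferase, with 0.55 ± 0.27, and Polg2, a subunit of the mitochondrial DNA polymerase, with 0.44 ± 0.24. These and the following genes were picked out after their values were seen. The coactivator Ppargc1a was dim and gave -0.17 ± 0.23, and Ppargc1b, Pprc1, Esrrg and Peo1 were not kept.

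The array also carries probes for the 13 proteins of mitochondrial DNA, and all were kept. Their differences ran from -0.21 for ND1 to 0.33 for ND3, with a median of 0.05. None passed the threshold in limma, or an unadjusted p of 0.05, where 9.72% and 25.3% of all genes did. ND1 to ND6 and ND4L belong to complex I, CYTB to complex III, COX1 to COX3 to complex IV and ATP6 and ATP8 to ATP synthase. COX1, the catalytic subunit of complex IV, gave -0.01 ± 0.23 (SE), beside the falls of the nuclear Cox8b and Cox6a2.

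Markers of differentiating muscle were read beside the isoforms. Of 8 kept markers of differentiating muscle 7 were called lower, with a median of -4.67, and the log2 of their mean linear signal was 1.70 to 1.97 on the mimic arrays and 6.12 to 6.12 on the scramble arrays. Myog, a transcription factor of muscle differentiation, gave -7.08 ± 0.23 (SE), Myh3, embryonic myosin, -5.06 ± 0.29, and Actc1, cardiac actin, -5.37 ± 0.22, with Myog above background on 5 of 6 mimic scans. Ckm, muscle creatine kinase, gave -0.59 ± 0.25 with an adjusted p of 0.187 in limma and did not pass. Of 5 kept myoblast markers, Myod1 (-3.25), Cdh15 (-1.98) and Des (-1.32) were called lower and Met (0.82) higher, Vim gave 0.20, and Myf5 was not kept. In bulk RNA, fewer differentiating cells and less RNA per cell cannot be told apart. The part of these changes in the values of Cox8b and Cox6a2 was not tested.

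Markers of other cell types varied in detection, from adipocyte markers at background to fibroblast markers that were all kept. The 4 adipocyte markers were well above background on 0 scans. Of 6 leukocyte markers 3 were kept and only Cd68 was called, with a rise of 4.83, while Ptprc, Lyz2 and Tyrobp were at background on all scans. Csf1r gave 0.17 and Itgam 0.15. The log2 of the mean linear signal of all 6 was 2.98 to 3.12 with the mimic and 1.55 to 1.56 with the scramble. Such a mean follows the brightest probes, and Cd68 went from a mean of 0.12 with the scramble to 4.96 with the mimic. It is not a rise of all 6. All 4 fibroblast markers were kept and 1, Lum, was called, with a rise of 2.51, while Dcn gave 0.82, Pdgfra -0.14 and Col1a1 -0.46. The log2 of the mean linear signal of the 4 was 5.53 to 5.60 against 4.62 to 5.33. The brightest probe was that of Dcn, with means of 7.31 and 6.49. Of 3 endothelial markers Kdr alone was kept, at 0.38 and not called.

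**Figure D5:**
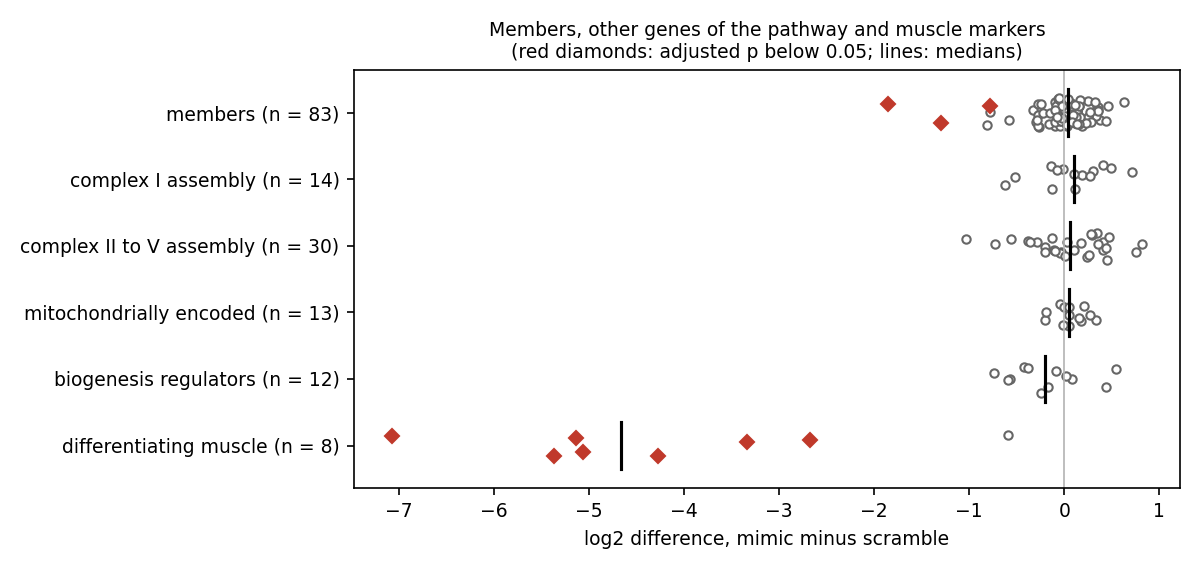
Log2 difference, mimic minus scramble, of the 83 subunit genes, the kept genes of the assembly, mitochondrially encoded and biogenesis lists, and the differentiating muscle markers; red diamonds passed an adjusted p of 0.05 and black lines are medians. The subunit genes centre at 0.04 and the muscle markers at -4.67, with 3 of 83 and 7 of 8 called. Tnnc1, among the 7, was near background with the mimic.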

How the data were processed

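RNA (150 ng per sample) was labelled with Cy3 and hybridised to 1-colour Agilent arrays of 60-base probes, per the labels' protocols. The deposited scanner files hold spot intensity on a linear scale, already corrected for background; the software was Feature Extraction, version 12.0.0.7 as the headers give it (10.7.3.1 per the submitters' processing notes), with positions on mm9. The deposited series matrix, also intensity on a linear scale, served as an alternative. No columns were unmapped.

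The processed signal was log2-transformed and the 75th percentile of the scan's non-control probes was subtracted. Flagged non-uniform and population outlier spots were left out, and spots of a probe averaged. Scans that the headers place at 1 slide position were averaged; such scans correlated at r = 0.99 to 0.993, and other scans at 0.911 to 0.992. A probe was kept when at least 0.5 of its spots were well above background on at least 4 scans, and the brightest kept probe stood for a gene name. The test was limma 3.58.1 in R 4.3.3 (lmFit, then eBayes, on 3 residual degrees of freedom and a prior of 5.26), with p-values adjusted by Benjamini-Hochberg over 13679 genes or 17455 probes. The fit was tested on simulated data. The number of arrays limits the precision.

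The subunit genes and all lists were chosen with earlier results of these data known. Genes named are those called, the extremes of each complex, and listed core subunits and isoforms with their partners. Genes whose kept probes differed in sign with at least 1 called were also to be named, but there were none. The few named for another reason were chosen after their values were seen. Among these are Ndufb5, subunits given as examples and the array's muscle markers. Alternatives covered samples, scan day, slide row, scaling, background correction, filters, probe choice, the deposited matrix and leaving out each array. Of the 87 genes, 86 were matched to RefSeq (GRCm38.p6) by accession and 1 by symbol. The result of 1 subunit gene is not reported here, though it is included in the counts.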

Additional observations from a re-analysis of the deposited data

How the results depend on the processing

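The count of 3 called subunit genes was 8 with 10 scans as separate samples, 5 with those scans and the replicate number as a block, 5 with the scan day as a block and the array as a random block, 5 with normexp, 5 with only probes detected on every scan, 1 with scaling to the array median, 1 with no filter on dim probes, and 1 to 8 when 1 array was left out. The 4 called subunit probes became 11, 1, 1 and 2 with separate scans, the array median, no filter and the series matrix, and 1 to 10 without 1 array. The 1330 called genes became 4154 with separate scans, 2335 with the replicate block, 808 with the slide row as a block, 756 with the array median, 407 with no filter and 645 with the series matrix. They ran from 645 without mimic array 1 to 3663 without scramble array 1; without mimic arrays 2 and 3 they were 672 and 669. The median of the 83 genes ran from -0.11 to 0.19 without 1 array. The split of called genes, 800 higher and 530 lower, was 671 and 665 with the 75th percentile taken over probes detected on every scan and 205 and 202 with no filter, and the median of all genes moved from 0.09 to -0.04 under the former. The balance of Cox8b and Cox8a (-1.82) was -1.64 with the replicate block, -1.59 and -2.06 on the first and second scan day and -1.51 with normexp. That of Cox7a1 and Cox7a2 (-0.22) was -0.056 with the replicate block, -0.13 with quantile normalization and -0.12 with the series matrix. That of Cox6a2 and Cox6a1 (-1.52) ran from -1.76 to -1.28 without 1 array. The replicate numbers share only a number: deviations of same-numbered samples correlated at 0.04, -0.124, -0.394 and 0.182, so they were not taken as pairs. The block added Atp5d (adjusted p 0.041) and Ndufs8 (0.049) to the 3 calls in limma. No named subunit gene that was called changed direction under an alternative. The cause of these differences was not tested. With 3 and 2 arrays the median SE of the 83 differences was 0.22, and a gene that missed the threshold is not shown to be unchanged. The 95% limits lay within 2-fold in 74 of the 83, and the others include the 3 called genes. For Ndufb3, which missed the threshold, the limits ran from -0.12 to 1.04.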
